A study of Mus musculus with 3 samples.

Results

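The genes described here encode 10 proteins of the embryonic basement membrane: the laminin chains Lama1, Lama5, Lamb1 and Lamc1, the type IV collagen chains Col4a1 and Col4a2, the linkers Nid1, Nid2 and Hspg2, and the collagen-binding protein Sparc. They are 10 of the 18193 genes with a probe set of their own on the arrays, and all 22 probe sets that carry their symbols were read. The genes were chosen by their place in this structure and partly on measured values, namely their lower signal in both mutants, so their differences from wild type are a description and were not tested. Signal was measured in RNA from embryoid bodies, the aggregates in which embryonic stem cells begin to differentiate, collected on day 7. The RQ bodies carried human BRCA1 with the substitution R1699Q as the series design spells it (the array's own label gives R1669Q), the MI bodies carried human BRCA1 with M1652I, and the WT bodies carried wild-type human BRCA1. BRCA1 is a tumour suppressor of DNA break repair. All 3 came from mouse embryonic stem cells of the strain labelled 129S7/SvEv Brd-Hprt b-m2, freed of feeder cells on gelatin before aggregation. Whether a line was 1 clone, and whether the cells kept mouse Brca1, was not stated in the labels or the series design. Each genotype was measured on 1 array, so no difference below has a replicate check, none has a p-value, and genotype cannot be told apart from culture or array.

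A basement membrane is a thin sheet of matrix beneath epithelia. Laminins, trimers of an alpha, a beta and a gamma chain, polymerize at the cell surface, and a network of type IV collagen is laid over them. Nidogens and the heparan sulfate proteoglycan perlecan, the product of Hspg2, join these networks. In the early mouse embryo the primitive endoderm and its derivatives are major producers, and parietal endoderm builds the thick Reichert's membrane from laminin containing the alpha 1 chain, type IV collagen and large amounts of Sparc.

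On these arrays signal was lower by 2-fold or more for 7 of the 10 genes in RQ bodies and for 8 of the 10 in MI bodies, each set against WT. The 7 were shared, and Nid2 was the gene past the limit in MI alone. Lama5 and Nid1 passed it in neither mutant. Among all genes above the level filter (a log2 signal of at least 6.31, the median of all probe sets, on the higher of the 2 arrays compared), 1.49% of 12226 passed that limit downward in RQ and 2.44% of 12786 in MI. Since the genes were chosen partly for this direction, nothing is read from the contrast between those shares. Their median log2 difference was -2.21 in RQ and -2.60 in MI, beside 0.01 and 0.06 over all genes above the filter. Both comparisons use the same WT array. In bulk RNA of this kind, fewer cells of a type and less RNA per cell cannot be told apart.

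**Figure D1:**
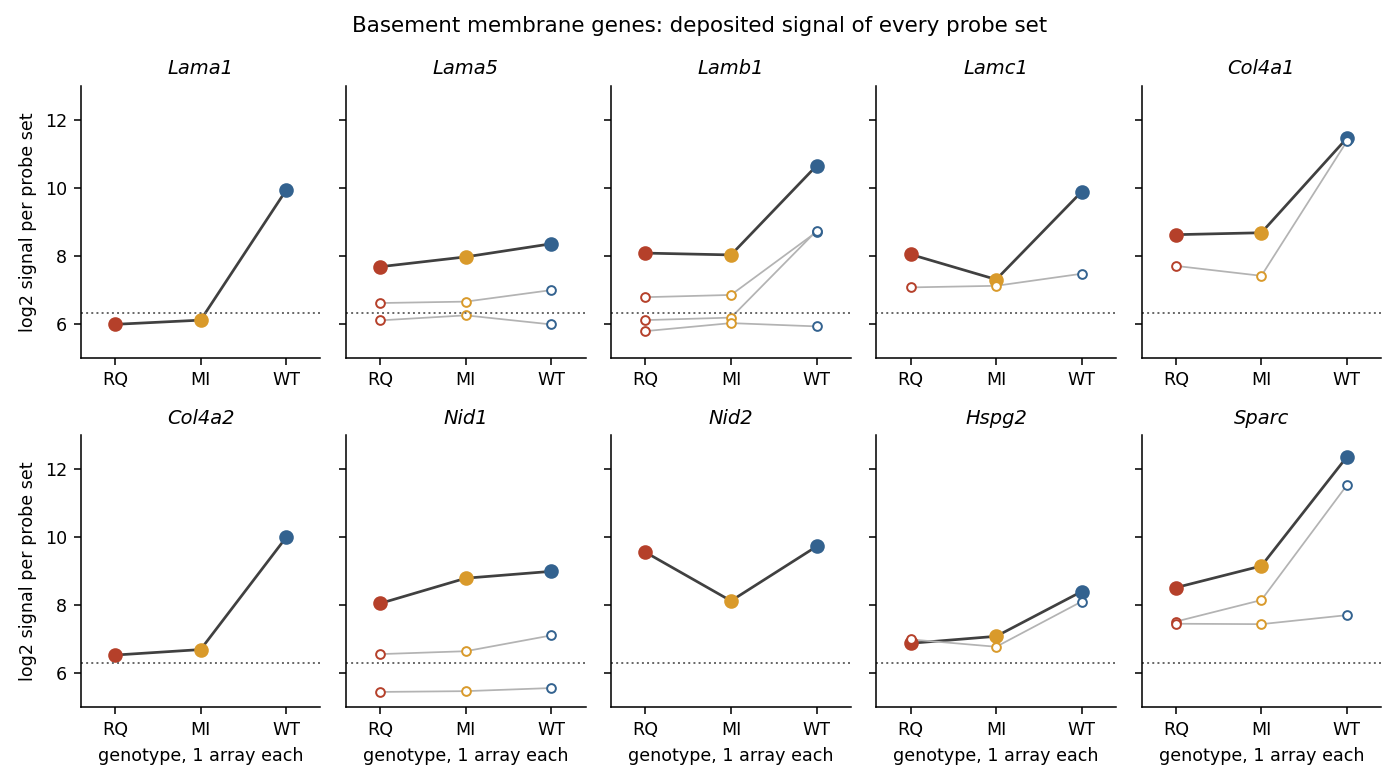
Deposited log2 signal (vertical axis) of every probe set of the 10 genes on the RQ, MI and WT arrays, 1 array per genotype. Filled points are the probe set with the highest mean, open points the other probe sets, thin lines join the readings of a probe set, and the dotted line is the level filter of 6.31. The filled points of Lama1, Lamb1, Lamc1, Col4a1, Col4a2 and Sparc are far lower in RQ and MI than in WT, those of Lama5 and Nid1 stay short of 2-fold in both mutants (Nid1 at -0.94 in RQ), and Nid2 is past 2-fold in MI alone.

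The arrays were compared first, and MI stood apart from WT in spread and in genes of high signal, while RQ was close to WT in both. Median log2 signal over all 45101 probe sets was 6.28 in RQ, 6.35 in MI and 6.29 in WT, with a spread (SD over probe sets) of 1.17, 1.06 and 1.17. The 18 probe sets of the spiked-in bacterial and phage control transcripts had a median log2 difference from WT of -0.64 in RQ and -0.80 in MI. Genes of high signal were generally lower in MI: at a mean level of 9 to 10 their median difference from WT was -0.36 over 635 genes, and 12.8% of them were at least 2-fold lower. In RQ the same figures were 0.04 over 707 genes and 5.94%. After a lowess correction for level, the 6 largest MI differences of the basement membrane genes lay between -3.73 (Lama1) and -2.33 (Lamb1), beside -3.83 (Lama1) and -2.58 (Lamc1) as deposited. The part of the spike and level shifts in the differences below was not tested.

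Lama1 encodes the laminin alpha 1 chain, which the earliest embryonic basement membranes contain. Its only probe set read 5.98 in RQ and 6.11 in MI, against 9.93 in WT. It was thus 15.5-fold lower in RQ and 14.2-fold lower in MI, rank 3 from the lowest among all genes above the filter in each comparison. Both mutant signals lay below the level filter, so the ratios are uncertain.

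Lamb1 and Lamc1 encode the beta 1 and gamma 1 chains that join alpha 1 in the early embryonic laminin. The Lamb1 probe set of highest signal read 8.08 in RQ and 8.02 in MI, against 10.65 in WT, which is 5.94-fold lower in RQ and 6.17-fold lower in MI. Among the other Lamb1 probe sets, both that passed the level filter in WT were also lower, by log2 differences of -2.63 and -1.92 in RQ and of -2.55 and -1.85 in MI. A further Lamb1 probe set stayed below the filter on all 3 arrays and differed by -0.14 in RQ and 0.10 in MI. For Lamc1 the stronger probe set read 8.04 in RQ and 7.30 in MI, against 9.89 in WT. Lamc1 was therefore 3.59-fold lower in RQ and 6.00-fold lower in MI by that probe set. Its second probe set, which also passed the filter on all 3 arrays, read 7.07 in RQ, 7.12 in MI and 7.47 in WT and stayed short of 2-fold. The 2 probe sets of Lamc1 thus disagree on the size of the difference, and their mean was -1.12 in RQ and -1.47 in MI.

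Lama5 encodes the alpha 5 chain, which pairs with the same beta 1 and gamma 1 chains and is widespread in epithelia. Unlike Lama1 it read 7.68 in RQ and 7.97 in MI, against 8.35 in WT. These are log2 differences of -0.67 in RQ and -0.39 in MI, short of 2-fold in both mutants. The second Lama5 probe set gave -0.38 and -0.34, and the last, below the filter on all 3 arrays, gave 0.12 and 0.27. By the probe sets of highest mean, all the chains of the alpha 1 laminin were lower past 2-fold, while the alternative alpha chain was not. The second Lamc1 probe set stayed short of it. Since the genes were chosen partly for lower signal, nothing is read from this contrast. Signals of different probe sets are not on a common scale, so the proportion of the alpha chains is not given.

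Type IV collagen of the embryo is a trimer of Col4a1 and Col4a2 products. Col4a1 read 8.62 in RQ and 8.68 in MI, against 11.46 in WT, by the probe set of highest mean. Its second probe set read 7.70 in RQ and 7.41 in MI, against 11.37 in WT. By these probe sets Col4a1 was 7.16-fold and 12.7-fold lower in RQ, and 6.88-fold and 15.5-fold lower in MI. Col4a2, with 1 probe set, read 6.54 in RQ and 6.70 in MI, against 10.001 in WT, and was 11.03-fold lower in RQ and 9.86-fold lower in MI. The Col4a2 difference lay between those of the Col4a1 probe sets in both mutants, so these data do not separate the responses of the chains. The genes neighbour each other on chromosome 8, on opposite strands, and the RefSeq start sites used here (assembly GRCm38.p6) lie 21 bases apart. Col4a1 starts at 11312826 on the minus strand and Col4a2 at 11312805 on the plus strand, so their first bases overlap.

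Sparc, also called osteonectin or BM-40, is a secreted protein that binds collagen. Its strongest probe set read 8.52 in RQ and 9.16 in MI, against 12.37 in WT, and the second read 7.52 and 8.16, against 11.54. Sparc was 14.4-fold and 16.2-fold lower in RQ by these probe sets, and 9.26-fold and 10.4-fold lower in MI. A further probe set that carries the Sparc symbol read 7.46 in RQ, 7.45 in MI and 7.71 in WT. It passed the level filter on all 3 arrays and did not follow the others, and which transcript it reads is not known from the files.

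The linkers were less alike. Hspg2, which encodes the perlecan core protein, read 6.88 in RQ and 7.09 in MI, against 8.41 in WT, and was 2.87-fold lower in RQ and 2.49-fold lower in MI. Its other probe set gave 2.17-fold and 2.52-fold. Nid1, nidogen 1, which bridges laminin and type IV collagen, read 8.06 in RQ and 8.80 in MI, against 9.001 in WT. Its log2 difference was -0.94 in RQ, just short of 2-fold, and -0.20 in MI, and the second probe set gave -0.55 and -0.47. The MI difference of Nid1 changed sign with scaling, to 0.14 after renewed quantile normalization and 0.04 after the lowess correction. Nid2, the related nidogen 2, read 9.56 in RQ and 8.13 in MI, against 9.73 in WT. It was 3.03-fold lower in MI, while its log2 difference in RQ was -0.17. Nid2 has a single probe set, of a kind that can match several transcripts, so its reading has no second measurement.

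**Figure D2:**
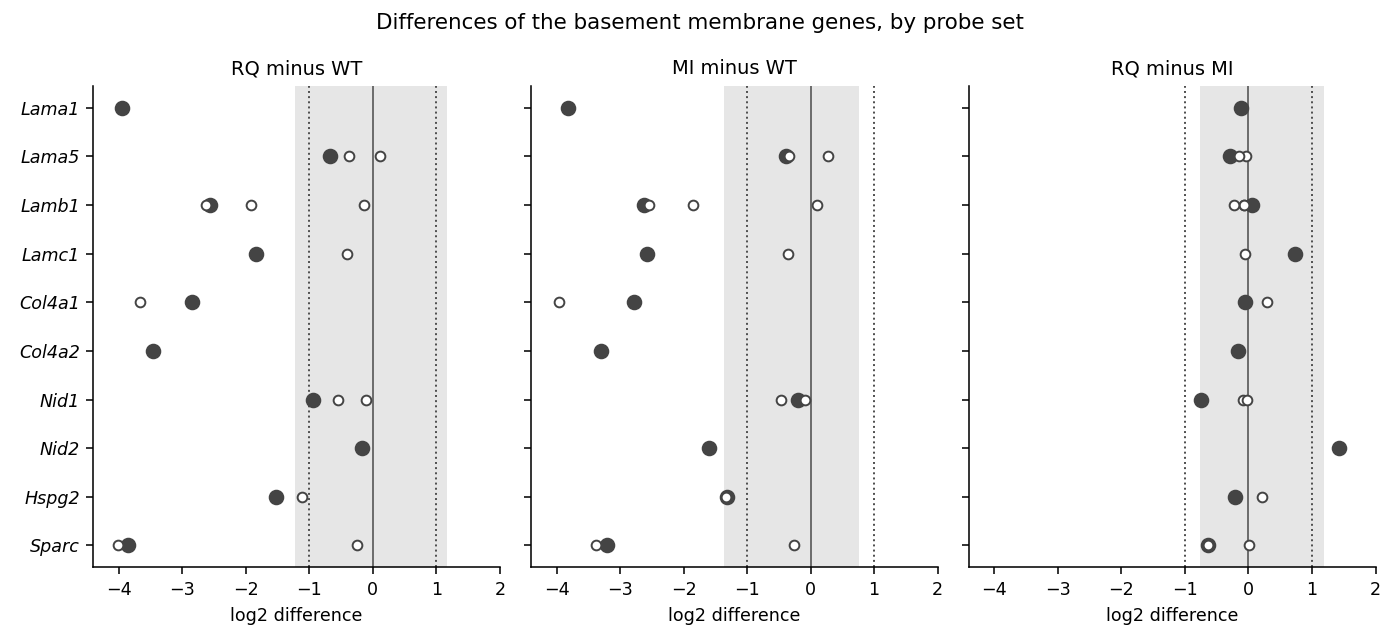
Log2 differences (horizontal axis) of the 10 genes for RQ minus WT, MI minus WT and RQ minus MI, with a point for each probe set (filled, the probe set of highest mean). Grey bands leave out the outermost 1% of genes above the filter on each side and run from -1.22 to 1.14 in RQ minus WT, from -1.36 to 0.75 in MI minus WT, and from -0.74 to 1.17 in RQ minus MI, and dotted lines mark 2-fold. Open points near 0 for Lamb1, Lamc1 and Sparc show where a gene's probe sets disagree.

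The RQ and MI bodies were also compared with each other. Of the 9 genes above the filter on either mutant array, 1 was at least 2-fold higher in RQ and none lower, beside 1.98% and 0.508% of 12800 genes. That gene was Nid2, 2.70-fold higher in RQ than in MI, which ranked 52nd from the highest of those genes. Lamc1 followed with a log2 difference of 0.74 by its stronger probe set and -0.05 by the other. In the other direction Nid1 differed by -0.74 and Sparc by -0.64, and a second Sparc probe set gave -0.63. After renewed quantile normalization both passed the limit, at -1.08 for Nid1 and -1.03 for Sparc. Lamb1 (0.05), Col4a1 (-0.06), Col4a2 (-0.16), Hspg2 (-0.21) and Lama5 (-0.29) were close on the mutant arrays, and Lama1 lay below the filter on both. The second Nid1 probe set, above the filter on all 3 arrays, differed by only -0.09 between RQ and MI, so the Nid1 difference rests on 1 probe set.

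Other chains of the same families gave no such reading. Of 11 further laminin and netrin genes on the arrays, 7 were above the filter in each comparison with WT and none was 2-fold apart from WT in either mutant. Their differences ran between -0.11 and 0.10 in RQ and reached 0.50 in MI. Lama3, a chain of epidermal laminin, was the farthest, at 6.45 in RQ and 6.93 in MI, against 6.43 in WT. Ntn1 (0.06 in RQ, 0.29 in MI), Ntn4 (-0.03 and 0.29) and Lama2 (0.10 and 0.23) followed. Of the other type IV collagen chains, Col4a6 (-0.14 in RQ, 0.04 in MI) passed the filter in both comparisons, and Col4a3 (0.22) and Col4a5 (0.18) passed it in MI alone. Signals of both groups were mostly near the filter on all 3 arrays, so a lower signal could hardly have been read in them.

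Further basement membrane proteins were mixed. Of the genes on this list above the filter, 1 of 12 passed the 2-fold limit downward in RQ and 3 of 14 in MI, and none was higher. Of all genes above the filter, 1.49% passed it downward in RQ and 2.44% in MI. The list was chosen with earlier results of these data known, so nothing is read from the contrast between these shares. Tinagl1, which encodes a secreted protein of basement membranes, read 6.90 in RQ and 7.89 in MI, against 9.34 in WT, differences of -2.45 and -1.45. Col18a1, whose collagen carries heparan sulfate, differed by -0.83 in RQ and -1.65 in MI. Fbln1, encoding the matrix protein fibulin 1, differed by -0.41 and -1.47, and Agrn, encoding the proteoglycan agrin, by -0.16 and -0.99. These last genes and Nid2 had the larger difference in MI, where genes of high signal were lower in general, and the part of that shift was not tested.

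Some of the genes for proteins that process collagen chains, not all of them enzymes, read lower in both mutants. Of 13 above the filter, 3 passed the 2-fold limit downward in RQ and 5 in MI, none was 2-fold higher, and 12 of 13 lay below 0 in each comparison, all but Mia3 (named after its values were seen). Over all genes above the filter the downward shares past 2-fold were 1.49% in RQ and 2.44% in MI, and 48.3% and 40.5% lay below 0. Because this list too was chosen with earlier results of these data known, nothing is read from that contrast. Serpinh1, encoding the collagen chaperone HSP47, read 8.01 in RQ and 8.74 in MI, against 10.73 in WT, differences of -2.72 and -1.99. Plod2, a lysyl hydroxylase, differed by -1.10 in RQ and -2.43 in MI, and P4ha1, a prolyl hydroxylase subunit, by -1.52 and -1.44. Ppib, the cyclophilin B gene, differed by -0.64 and -1.07. Crtap, named after its values were seen as the fifth past the limit in MI, differed by -0.87 and -1.06. The list's median was -0.64 in RQ and -0.82 in MI.

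Receptors for these matrix proteins differed less, but 3 of the 17 on the arrays stayed below the filter on all arrays. Some others were near it, where a lower signal could hardly have been read. Of those above the filter, 1 of 13 was at least 2-fold lower in RQ, 0 of 14 in MI, and none was higher, with medians of -0.05 and 0.02. Sdc4, the syndecan 4 gene, was the exception in RQ at -1.08 (-0.87 in MI), and no receptor passed the limit when probe sets of a gene were averaged. Dag1, encoding dystroglycan, differed by 0.73 in RQ and 0.05 in MI. Bcam, a receptor for the alpha 5 chain, differed by -0.80 and -0.78 and read only 6.38 in WT, near the filter. Rpsa, a laminin receptor and ribosomal protein with many near-identical copies in the genome, differed by -0.39 and -0.80. Among proteases and inhibitors of matrix turnover, 2 of 10 were lower past 2-fold in RQ and 0 of 10 in MI. They were the cathepsin genes Ctsl (-2.01 in RQ, -0.98 in MI) and Ctsb (-1.42 and -0.90). The inhibitor genes Timp2 (-0.72 and 0.50) and Timp1 (-0.71 and 0.35) had opposite signs in the mutants.

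**Figure D3:**
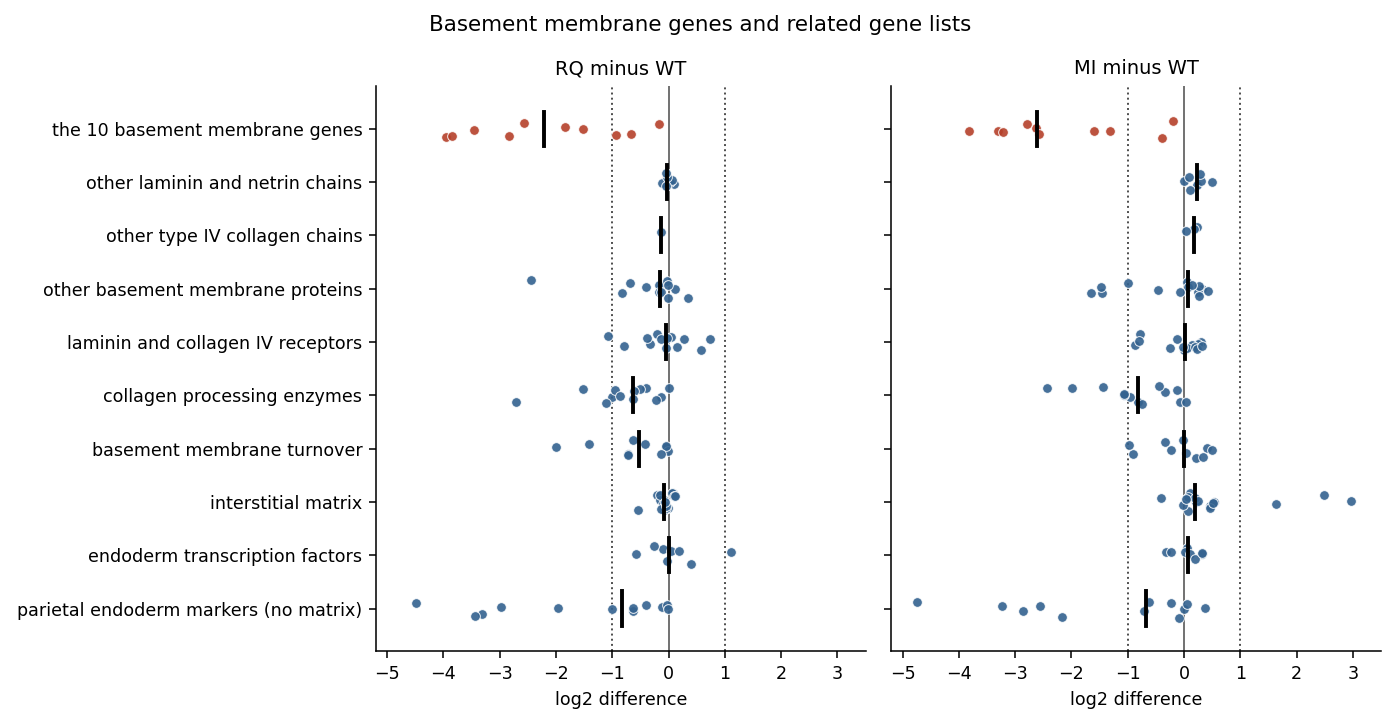
Log2 differences (horizontal axis) of single genes in 10 gene lists, for RQ minus WT and MI minus WT, with 1 point per gene above the level filter and a black bar at each list's median. Points are spread vertically within a row for legibility, and dotted lines mark 2-fold. The 10 basement membrane genes (top row, medians -2.21 and -2.60) are mostly left of the 2-fold line. Collagen processing genes (row labelled enzymes, though not all are) are shifted less (-0.64 and -0.82), and other laminin and collagen IV chains lie near 0.

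Matrix genes of connective tissue mostly read close to the level filter in WT, where a lower signal could hardly have been read. Fn1, encoding fibronectin, read 10.50 in RQ and 10.30 in MI, against 10.70 in WT, differences of -0.20 and -0.40 (named after its values were seen). Of 17 interstitial matrix genes above the filter in the RQ comparison, 0 were past 2-fold in either direction, with a median of -0.08. In MI, 3 of 18 were at least 2-fold higher and none lower, with a median of 0.20, while 0.516% of all genes were at least 2-fold higher in MI and 1.68% in RQ. The 3 were Dcn, the decorin gene, which read 6.48 in RQ and 9.54 in MI, against 6.57 in WT, Bgn, the biglycan gene (-0.54 in RQ, 2.48 in MI), and Col1a2, a type I collagen chain (-0.01 and 1.64). Col6a1 differed by 0.05 and 0.54. None of the 3 was past the limit by the probe set with the smallest difference.

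Cell type markers were read beside the basement membrane genes, since parietal and visceral endoderm, fibroblasts and endothelium can all make such matrix. Of 12 parietal endoderm markers above the filter that are not matrix genes, 6 passed the 2-fold limit downward in RQ and 5 in MI. Of all genes above the filter, 1.49% passed it downward in RQ and 2.44% in MI. The marker lists here and below were chosen with earlier results of these data known, so nothing is read from the contrast between these shares. The summed linear signal of the 15 parietal markers on the arrays was 1753 in RQ and 1892 in MI, against 9086 in WT. Probe sets are not on a common scale, and such a sum is weighted to the few genes of highest signal. The mean log2 signal of the 15 was 6.59 in RQ and 6.76 in MI, against 7.88 in WT. Srgn, the serglycin gene, differed by -4.49 in RQ and -4.74 in MI, and the endocytic adaptor gene Dab2 by -3.44 and -2.86. The keratin genes Krt18 and Krt8 differed by -3.31 and -2.98 in RQ and by -3.24 and -2.56 in MI. In RQ, Dab2 (6.25) and Krt8 (6.30) lay below the filter, so the sizes of those differences are uncertain. Tfpi, an inhibitor of coagulation, differed by -1.96 and -2.16, and Krt19 by -1.01 and -0.71 (both named after their values were seen). The other markers above the filter stayed short of 2-fold in both mutants: Plat (-0.63 in RQ, -0.24 in MI), Pth1r (-0.63 and -0.63), Snai1 (-0.41 and -0.10), Fst (-0.13 and 0.00), Pdgfra (-0.03 and 0.38) and Cd80 (0.00 and 0.05). The keratins and Dab2 are also genes of other epithelia. Thbd and Stra6 of this list, like those 6 named after their values were seen, and Sox7 stayed below the filter on all arrays. Of the visceral endoderm markers above the filter, 9 of 14 passed the 2-fold limit downward in RQ and 8 of 15 in MI. Cubn led them (-4.58 and -4.60), with Apoe at -2.67 and -3.65 and Car4 at -3.24 and -3.34. Cubn (6.09 in RQ, 6.08 in MI) and Car4 (6.29 and 6.19) lay below the filter in both mutants, so those sizes are uncertain. Of the 16 visceral markers on the arrays, 14 were above the filter in WT, against 8 in RQ and 10 in MI. For the 16 on the arrays the summed signal was 1624 in RQ and 2548 in MI, against 7497 in WT. Their mean log2 signal was 6.48 in RQ and 6.67 in MI, against 8.08 in WT, and Dab2 is on both lists. Rhox5, a homeobox gene, read 7.996 in RQ and 10.20 in MI, against 9.54 in WT, so it was the ninth past the limit in RQ and stood above WT in MI. Its signal was the highest of the list in MI and weighs most in the MI sum. Some of the other visceral markers differed little, among them Afp (-0.14 in RQ, 0.24 in MI), Ttr (-0.14 and 0.08) and Hnf4a (0.04 and 0.10). In MI, 5 of the 15 were above 0. Rhox5, Afp, Ttr and Hnf4a were named after their values were seen.

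Endoderm transcription factors showed no fall past 2-fold, but several had too little signal in WT for a fall to be read. Of 8 above the filter none was 2-fold lower in either mutant, and the 1 past 2-fold was Tfap2c, which is also a gene of trophoblast and germ cells (1.10 in RQ, 0.32 in MI). Cited1 (-0.59 and -0.33), Klf5 (0.41 and -0.24) and Foxq1 (-0.03 and 0.33) were the next. Gata4 and Foxa2, and Sox7, were below the filter on all 3 arrays, while Gata6 (6.94 in RQ, 7.08 in MI and 7.04 in WT) and Sox17 (6.79, 7.06 and 7.05) were little above it. These 5 were named after their values were seen. Their probe sets therefore could show little of the state of the endoderm even in WT bodies. Each value is of the probe set with the highest mean, and the other probe sets of these genes are not given.

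Some markers of fibroblasts, which include feeder cells, read higher on the MI array, and others did not. Of those above the filter, 5 of 11 were at least 2-fold higher in MI and 0 of 8 were past 2-fold in RQ. Of all genes above the filter, 0.516% were at least 2-fold higher in MI and 1.68% in RQ. The summed signal of the 14 fibroblast markers was 1170 in RQ and 4941 in MI, against 1245 in WT. Their mean log2 signal was 6.28 in RQ and 7.44 in MI, against 6.34 in WT. S100a4 (3.31), Cd44 (3.27), Dcn, Vim (2.83) and Col1a2 were the 5 in MI, and 8 of the 14 were above the filter in RQ and 11 in MI, against 6 in WT. Postn, Col3a1, Fap and Pdgfrb stayed within 0.10 of WT in both mutants, and Thy1, Lum and Twist1 were below the filter on all arrays (all named after their values were seen). By the probe set with the smallest difference, Dcn and Col1a2 were not past the limit. Several of these genes are also on the interstitial matrix list. All 4 endothelial markers above the filter were within 2-fold: Pecam1 (0.54 in RQ, 0.43 in MI), Esam (-0.36 and -0.32), Eng (0.17 and 0.01) and Emcn (0.05 and 0.05), while Cdh5, Kdr and Tek were below it on all arrays. Of the stem cell markers, 7 of 14 were at least 2-fold higher in RQ and none lower. In MI 4 of 13 were higher (Dppa2, Dppa3, Nanog and Klf4) and 2 lower (Pou5f1 and Utf1). Dppa2 differed by 3.17 in RQ and 1.64 in MI, Zfp42 by 1.93 and 0.63, Dppa3 by 0.71 and 1.86, and Nr0b1 by 1.92 in RQ. Cdh5, Kdr, Tek, Nanog, Klf4, Pou5f1 and Utf1 were named after their values were seen. The part of any of these cell types in the readings of the basement membrane genes was not tested.

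The genes whose pattern lay closest to the basement membrane genes were sought by the Euclidean distance between their pairs of differences (RQ minus WT and MI minus WT) over the 3 arrays, among 12971 genes above the filter on any array. Sparc (distance 0.62), Col4a2 (0.71) and Car4 (0.86) were closest to Lama1. For Col4a1 they were Glul (0.19), encoding glutamine synthetase, the protease inhibitor gene Spink1 (0.21) and the lysosomal protease gene Lgmn (0.21). Krt18 (0.17), Car4 (0.22) and Sparc (0.40) were closest to Col4a2, and Col4a2 (0.40), Dab2 (0.54) and Krt18 (0.54) to Sparc. The basement membrane genes were chosen on these same differences, so nothing is read from their closeness to each other. With 3 arrays that share 1 WT reading, the distance describes size alone. Lama1, Car4 and Spink1 lay below the filter in both mutants, and Dab2 in RQ, so distances that involve them are uncertain.

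Promoter sequence was examined as a property that the choice of genes did not use. Windows of 300 bases, 250 before and 50 after the start, were available from RefSeq (GRCm38.p6) for 7 of the 10 genes, without Lama1, Lamc1 and Nid2. The stretches below are the bases before the start of Sparc and Hspg2, genes lower in both mutants, and of Nid1, which passed 2-fold in neither. Hspg2 is shown only as far as the upstream edge of its annotated gene. They are 5′ to 3′ on the gene's strand, with matches to the GC box GGGCGG and to the CCAAT box in capitals, on either strand.
Sparc, chr11:55420081-55420330, minus strand: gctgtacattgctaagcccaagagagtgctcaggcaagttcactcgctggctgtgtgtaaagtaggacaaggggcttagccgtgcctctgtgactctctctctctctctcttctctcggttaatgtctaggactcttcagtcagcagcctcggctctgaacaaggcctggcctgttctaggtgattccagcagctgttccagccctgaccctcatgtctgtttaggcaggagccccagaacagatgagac
Hspg2, chr4:137468553-137468750, plus strand: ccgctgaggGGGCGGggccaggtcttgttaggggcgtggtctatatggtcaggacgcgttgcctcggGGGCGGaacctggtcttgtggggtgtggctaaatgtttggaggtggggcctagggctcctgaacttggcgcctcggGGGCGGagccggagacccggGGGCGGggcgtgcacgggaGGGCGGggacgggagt
Nid1, chr13:13437352-13437601, plus strand: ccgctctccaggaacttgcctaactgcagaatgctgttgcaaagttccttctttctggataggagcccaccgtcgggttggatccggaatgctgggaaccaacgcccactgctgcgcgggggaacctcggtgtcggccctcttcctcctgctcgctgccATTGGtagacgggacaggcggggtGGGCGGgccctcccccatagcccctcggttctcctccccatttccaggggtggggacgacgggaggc

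The Hspg2 stretch holds 5 GC boxes, the Nid1 stretch holds 1 GC box and 1 CCAAT box, and the Sparc stretch holds neither. Over the full windows, a GC box was present in 6 of 7 genes, all but Sparc, and in 35.7% of all 32851 promoter windows of the table. A CCAAT box was present in 4 of 7, namely Lamb1, Col4a1, Col4a2 and Nid1, and in 37.4% of all windows. None of the 7 windows held a GATA factor motif (AGATAA or AGATAG or TGATAA or TGATAG), which 29.8% of all windows held. None held a SOX motif (ACAAAG or ACAATG, 28.6%), a TATA box (TATAAA, 13.6%) or an AP-1 motif (TGACTCA or TGAGTCA, 5.202%). Both strands were searched, overlapping matches were counted, and no match says only that these letters are absent from the window. The windows of Col4a1 and Col4a2 share 78 bases, so they are not independent. Sparc stood apart in base composition: its ratio of observed to expected CpG was 0.17, below the median of all windows (0.38), while the other 6 lay between 0.61 (Lama5) and 0.90 (Col4a1). GC content was 55.3% for Sparc and 63.7% to 74.0% for the others, with a median of 52.7% over all windows. Genes past 2-fold in both mutants thus included promoters both rich and poor in CpG, and the members short of it, Lama5 and Nid1, were not distinguished by these features.

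**Figure D4:**
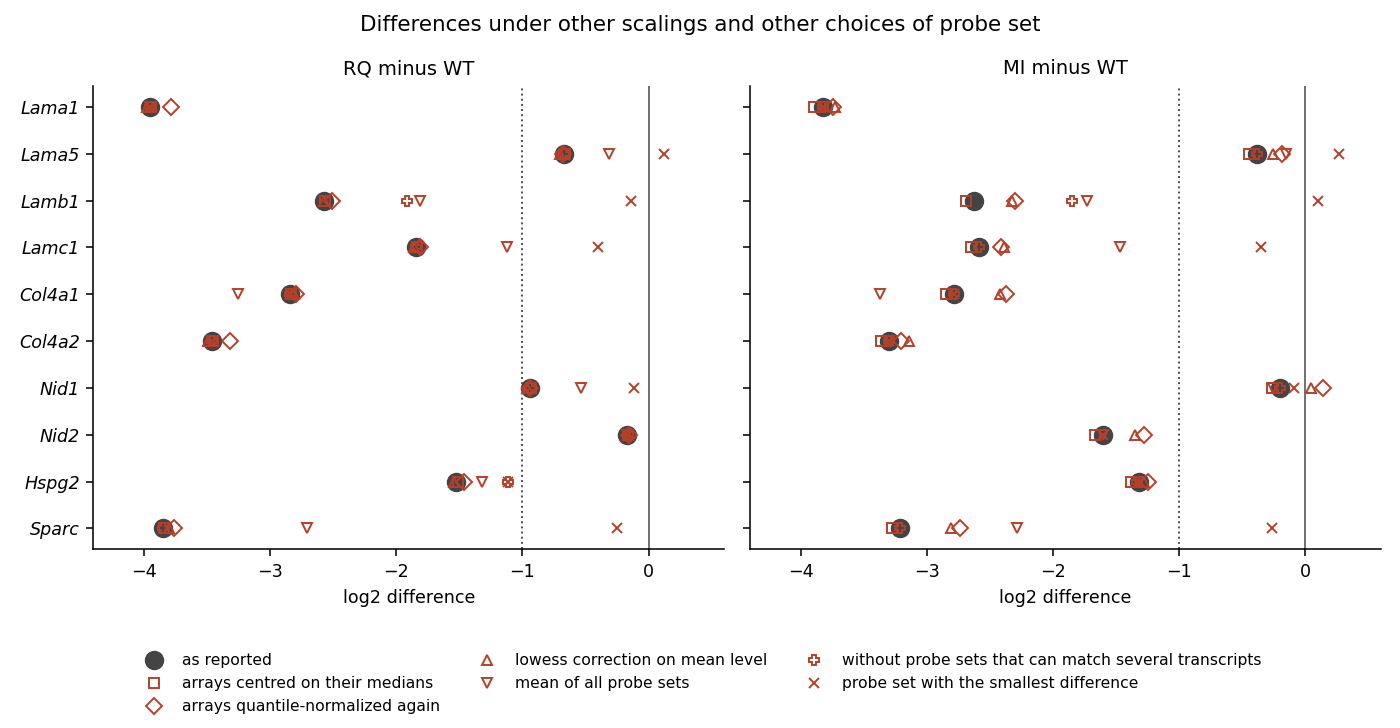
Log2 differences (horizontal axis) of the 10 genes from WT as reported (filled circles) and under 6 other settings (open symbols and crosses): 3 scalings of the arrays and 3 choices of probe set. Dotted lines mark 2-fold lower. The scalings move the points little (Sparc in MI, from -3.21 to -2.73, is among the larger shifts). The probe set with the smallest difference brings Lamb1, Lamc1 and Sparc close to 0. For Lamb1 that is a probe set below the filter on all 3 arrays. Lama1, Col4a1, Col4a2 and Hspg2 stay past 2-fold under all 6, but Lama1 and Col4a2 have 1 probe set each, so its choice cannot move them.

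How far each gene's difference rests on the choice of probe set and scaling is shown by the plot of differences under other settings. Lama1, Col4a1, Col4a2 and Hspg2 were at least 2-fold lower in both mutants under each of the 6 settings. Lama1 and Col4a2 have 1 probe set each, so the 3 choices of probe set could not move them and only the scalings bear on them. Lama1 ranged from -3.98 to -3.79 in RQ and from -3.89 to -3.73 in MI. Sparc, Lamb1 and Lamc1 kept 2-fold with the mean of their probe sets, at -2.71, -1.81 and -1.12 in RQ and -2.29, -1.73 and -1.47 in MI. They lost it when the probe set with the smallest difference stood for the gene, at -0.25, -0.14 and -0.40 in RQ and -0.27, 0.10 and -0.36 in MI. For Lamb1 that probe set lay below the filter on all 3 arrays, and the other Lamb1 probe sets were past 2-fold lower in both mutants. Those of Sparc and Lamc1 passed the filter on all 3 arrays. Nid2, also with 1 probe set, stayed between -1.67 and -1.28 in MI under the 5 settings that could read it.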

How the data were processed

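RNA of 3 embryoid body cultures (RQ, MI and WT, 6 ug each, per the labels) was read on 1 Affymetrix array each. The deposited values, 45101 log2 signals per array, were made by the authors with RMA and Partek, per the submitters' processing notes. Versions, order of steps and genome build are not given in the sources used here. RMA corrects background, normalizes arrays and summarises probes, which compresses low signals. Detection calls, scan dates and protein sequences did not enter the work.

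Probe sets with 1 gene symbol in the platform annotation were used (34945 of 18193 genes), with symbols checked against RefSeq by Entrez identifier (0 changed). The probe set with the highest mean stood for a gene. Differences were computed in Python 3.11.15, with a 2-fold limit and a level filter. With 1 array per genotype no test was run. Genes named are the 10 members, up to 4 of each of 13 other lists with the largest difference from WT, and the 3 nearest patterns of 4 members. Genes outside this rule are marked in the text as named after their values were seen. The members and lists were chosen with earlier results of these data known. Alternatives covered scaling, probe set, filter and limit. The counting was tested on simulated data.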

Additional observations from a re-analysis of the deposited data

How the results depend on the processing

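With 1 array per genotype, no replicate could be left out. No paired analysis was possible because each genotype has a single array. Counts of the 10 genes at least 2-fold lower stayed within 1.5 times of 7 in RQ and 8 in MI under 9 of 10 alternatives each. With the probe set of smallest difference they were 4 and 5, of 7 genes above the filter. By that probe set, which lay below the filter on all 3 arrays, Lamb1 in MI changed sign, to 0.10. Between the mutants, the count lower in RQ than in MI, 0 as reported, was 2 after renewed quantile normalization (Nid1 and Sparc) and 2 at a 1.5-fold limit. The count higher, 1 as reported, was 2 at 1.5-fold, 0 at 3-fold and 0 after probe sets able to match more than 1 transcript were left out, which removes Nid2. Over the 13 other lists together, excluding the 10 genes, 21 genes were lower and 8 higher in RQ, and 22 lower and 10 higher in MI. The lower count in RQ was 34 at 1.5-fold and the higher count 5 at 3-fold. In MI the lower count was 14 at 3-fold and the higher count 5 with the probe set of smallest difference. Over all genes, MI against WT had 66 higher and 312 lower genes as reported, 83 and 217 after the lowess correction, and 107 and 193 after renewed quantile normalization. RQ against MI had 253 higher and 65 lower genes, 148 and 79 after the lowess correction, and 116 and 106 after renewed quantile normalization. Whether a probe set was above background could not be read, so low signals such as those of Lama1 in the mutants give no firm ratio.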
